A study of Rattus norvegicus with 12 samples.

Results

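Nr1d1, Nr1d2, Dbp, Per3 and Ciart are genes of the circadian clock. They were described here rat by rat in the lungs of 12 male Wistar rats, 6 given silica and 6 given saline. The study's own table of differentially expressed genes assigns 6 array probes to these 5 genes, 1 probe to each gene and 2 to Per3. They are 6 of the 51255 distinct probes on the array, and 6 of the 1279 probes that could be named here (1099 genes). That table lists probes that differed between silica and saline lungs on day 28, at a fold change of at least 2. The day 28 values of these probes therefore chose them, and they are given below as a description with no test. The weakest of the 6 differed 2.03-fold and the next 2.16-fold at day 28, and no probe just outside the limit of 2-fold was named here.

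The labels give 4 groups of 3 rats each, and each rat had its own array. Silica rats received 1 mL of silicon dioxide at 50 mg/mL into the trachea, which the titles of the samples also give as 50 mg/kg, and saline rats received 1 mL of saline. Silica of this kind causes silicosis, a lung disease with inflammatory nodules and fibrosis. The lungs were those of day 14 or day 28 by their titles and time points, whereas the treatment text, identical in every sample, speaks of day 28 only. In the study's methods the day 28 lungs were picked on their histology, and the rats lived under a light and dark cycle. The hour at which each rat was killed is not given in the sources used here. Whole lung was measured, in which fewer cells of a type and less RNA per cell cannot be told apart.

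The clock is a feedback loop that runs in nearly every cell, the lung included. The activators Bmal1 and Clock bind E-boxes in DNA and switch on their own repressors, the Per and Cry proteins, together with the nuclear receptors Nr1d1 and Nr1d2 (Rev-erb alpha and beta), which repress Bmal1. Dbp, an activator that binds D-boxes, and Ciart (Chrono), a repressor of Bmal1 and Clock, are switched on through E-boxes too, so that all of these mRNAs rise and fall over the day. Nr1d1 and Dbp have daily rhythms of large amplitude in many tissues, and Nr1d1 also holds back inflammatory genes in macrophages and lung.

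An array probe is a short DNA that captures the labelled RNA of 1 gene. The probes of Nr1d1 and of 1 of the Per3 sites are shown because the results below turn on them most, and each has 1 of 3 reading frames free of stop codons. Both sequences are printed 5′ to 3′ in the sense of the mRNA as the deposited arrays hold them.
Nr1d1 probe: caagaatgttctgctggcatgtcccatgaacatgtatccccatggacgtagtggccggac
Per3 probe CUST_R2_15909: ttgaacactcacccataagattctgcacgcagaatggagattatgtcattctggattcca
The other probes are A_43_P15057 for Nr1d2, A_64_P017188 for Dbp, A_64_P119407 for Per3 and A_44_P1092261 for Ciart. On the rat assembly GRCr8, RefSeq places Nr1d1 at chr10:84224599-84231812, Nr1d2 at chr15:9955034-9981329, Dbp at chr1:105312256-105317205, Per3 at chr5:166740914-166778243 and Ciart at chr2:186108744-186113778. Ciart was placed by its symbol alone, since the accession of its probe was not among the RefSeq genes used here.

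Clock control of these genes runs through short motifs near their start sites, so the RefSeq promoters (GRCr8, 250 bases before to 50 after a start) were searched on both strands. The motifs were the E-box CACGTG, the D-box TTATGTAA or TTACGTAA, and AGGTCA, a site to which Nr1d1 and Ror receptors bind. The 3 promoters that held a motif are shown over the 250 bases before the start, with the matches in capitals.
Ciart, minus strand, chr2:186112247-186112496: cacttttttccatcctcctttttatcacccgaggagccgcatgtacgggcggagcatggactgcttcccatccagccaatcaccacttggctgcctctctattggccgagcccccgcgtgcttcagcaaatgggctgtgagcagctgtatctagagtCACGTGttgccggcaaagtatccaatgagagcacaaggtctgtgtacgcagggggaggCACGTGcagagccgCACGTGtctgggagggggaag
Nr1d1, minus strand, the inner of 2 starts, chr10:84229455-84229704: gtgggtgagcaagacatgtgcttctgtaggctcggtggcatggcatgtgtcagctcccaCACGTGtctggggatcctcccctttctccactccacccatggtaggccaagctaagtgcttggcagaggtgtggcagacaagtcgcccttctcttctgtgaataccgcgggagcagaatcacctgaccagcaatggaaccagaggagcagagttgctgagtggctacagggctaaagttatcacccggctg
Nr1d2, plus strand, chr15:9954784-9955033: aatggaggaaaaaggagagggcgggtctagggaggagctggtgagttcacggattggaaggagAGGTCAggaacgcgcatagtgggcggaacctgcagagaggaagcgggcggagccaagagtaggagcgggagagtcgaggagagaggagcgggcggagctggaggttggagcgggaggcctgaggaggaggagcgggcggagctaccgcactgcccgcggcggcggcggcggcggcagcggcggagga
The Ciart promoter held 3 E-boxes, whose first bases lay at -93, -35 and -21 from the start. Of the 33469 rat promoters in the table, 6.42% held an E-box and 0.0568% (19 promoters) held 3 or more. The inner Nr1d1 promoter held 1 E-box at -191, and the Nr1d2 promoter 1 AGGTCA match at -187, a motif found in 16.2% of promoters. The outer Nr1d1 promoter and those of Dbp and Per3 held none of these letters within the window, and the D-box, present in 1.01% of promoters, was in none of them. A match in this window is a description of the letters there, and no binding was measured.

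Signals are given as log2 of the processed spot intensity after quantile normalization over all 12 arrays, so that a difference of 1 is 2-fold. A probe was kept when it stood well above background, by the flag of the scanner software, on all 3 arrays of at least 1 group, and 34097 probes were kept. All 6 probes were among them, but the Ciart probe was kept through the saline rats of day 28 alone. Levels of different probes are not compared with each other. Nothing in the sources ties rats of different groups together, and each rat is 1 replicate.

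Nr1d1, the repressor of Bmal1, had its highest signals in the saline rats of day 28 and differed most between rats. Its signal was 8.57, 8.12 and 9.56 in the saline rats of day 14 and 8.15, 6.71 and 8.93 in the silica rats of day 14. It was 11.15, 11.12 and 10.35 in the saline rats of day 28 and 6.73, 8.72 and 8.35 in the silica rats of day 28. The 3 saline rats of day 28 stood above all other 9 rats, while the other 3 groups overlapped. The choice of probes on day 28 favours such a pattern, and its share over all probes was not counted. At day 14 the silica mean was 7.93 ± 1.13 (SD, n = 3) against 8.75 ± 0.74 in saline, a log2 difference of -0.82 (SE 0.63, 95% interval -2.20 to 0.56) with an adjusted p of 0.43 in limma. A difference was thus not detectable at day 14, at which the spread between rats was wide. At day 28 the silica mean was 7.93 ± 1.06 against 10.87 ± 0.46, a log2 difference of -2.94 or 7.67-fold lower, and -2.33 when silica rat 1 was left out.

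**Figure D1:**
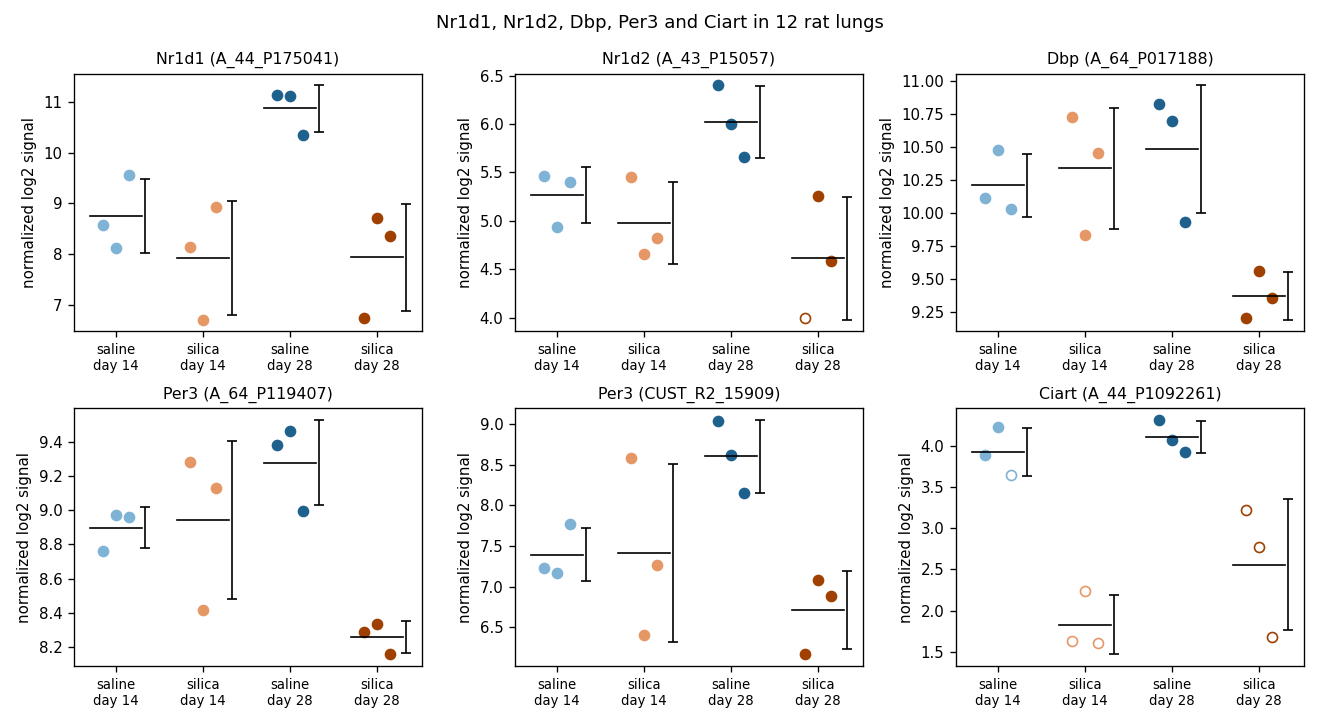
Normalized log2 signal of each of the 6 probes (y axis, 1 panel per probe, with its own scale) in the 4 groups of 3 rats (x axis). Points are rats in the order 1 to 3, open points are arrays on which the probe was not well above background, lines are group means and bars are 1 SD. The saline rats of day 28 lie highest for Nr1d1 (10.35 to 11.15), and all Ciart points of silica rats are open.

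Nr1d2, the paralogue of Nr1d1, was read by a dim probe and likewise had its highest signals in the saline rats of day 28. The saline rats of day 14 had 5.46, 4.94 and 5.40 and the silica rats of that day 5.45, 4.66 and 4.82. On day 28 the saline rats had 6.40, 6.0 and 5.66 and the silica rats 3.99, 5.26 and 4.59, where the array at 3.99 was not well above background. Again the 3 saline rats of day 28 lay above every other rat. As for Nr1d1, the choice on day 28 favours this, and its share over all probes was not counted. The difference at day 14 was -0.29 (SE 0.32, 95% interval -1.01 to 0.42, limma adjusted p = 0.60), within the spread between rats. At day 28 it was -1.41, or 2.65-fold lower in silica. With a background correction by normexp it was -0.56, short of 2-fold, so its size depended on the processing.

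Dbp, the D-box activator, was bright in all rats and set the silica rats of day 28 apart rather than the saline rats. Its signal was 10.12, 10.48 and 10.04 in saline and 10.73, 9.84 and 10.45 in silica on day 14, and the groups overlapped. On day 28 it was 10.83, 10.70 and 9.94 in saline and 9.20, 9.56 and 9.36 in silica. Every silica rat of day 28 lay below all other 9 rats. This pattern too is favoured by the choice on day 28, and its share over all probes was not counted. The difference at day 14 was 0.13 (SE 0.27, 95% interval -0.46 to 0.72, limma adjusted p = 0.80), and at day 28 it was -1.11, or 2.16-fold lower in silica.

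Per3 belongs to the Per family, although it is not needed for the clock to run. With probe A_64_P119407 the signal was 8.76, 8.97 and 8.96 in saline and 9.29, 8.42 and 9.13 in silica on day 14, and 9.38, 9.46 and 9.0 in saline and 8.28, 8.33 and 8.15 in silica on day 28. With probe CUST_R2_15909 it was 7.23, 7.17 and 7.76 in saline and 8.58, 6.40 and 7.26 in silica on day 14, and 9.04, 8.62 and 8.15 in saline and 6.17, 7.08 and 6.88 in silica on day 28. Both probes were lowest in the silica rats of day 28 by their group means, and both had overlapping groups on day 14. With A_64_P119407, as for Dbp, every silica rat of day 28 lay below every other rat, and with CUST_R2_15909 not. Here too the choice on day 28 favours the pattern, and its share over all probes was not counted. The day 14 differences were 0.04 (SE 0.21, 95% interval -0.42 to 0.51, limma adjusted p = 0.92) and 0.02 (SE 0.47, 95% interval -1.01 to 1.06, limma adjusted p = 0.98). At day 28 the probes disagreed in size, with -1.02 (2.03-fold lower) for A_64_P119407 and -1.89 (3.70-fold lower) for CUST_R2_15909. They also disagreed between the saline days, as given below, and the first of them had the smaller spread between rats.

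Ciart, the repressor that binds the Bmal1 and Clock pair, was measured near the detection limit. Its signal was 3.89, 4.22 and 3.64 in the saline rats of day 14, the last of them not well above background, and 4.31, 4.07 and 3.92 in those of day 28. In silica rats it was 1.63, 2.24 and 1.62 on day 14 and 3.22, 2.77 and 1.68 on day 28, and none of these 6 arrays was well above background. The saline and silica rats did not overlap on either day. The size of a difference from the silica rats is therefore not measured. At day 14 the silica signal was nominally at least 1.06-fold lower (limma adjusted p = 0.0036). This bound sets the saline mean of 3.92 against the lowest signals well above background on the silica arrays (mean 3.84). It is not strict, because the saline mean includes rat 3 at 3.64, itself below the lowest such signal of its array (3.93). The adjusted p comes from the signals as read, with a silica mean of 1.83, and not from the bound. At day 28 these lowest signals averaged 4.37, above the saline mean of 4.10, so no fold is given there. The probe was no longer called at day 14 with every signal raised to that floor (-0.17, adjusted p = 0.45) and with a background correction by normexp (-0.32, adjusted p = 0.017, short of 2-fold). With the arrays of day 14 taken alone, the probe did not pass the filter and was not tested.

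None of the 5 probes of Nr1d1, Nr1d2, Dbp and Per3 was called at day 14, at a fold of at least 2 and an adjusted p not above 0.05. The Ciart probe met these limits only on signals below the background flag, where a fold of 2 was not measured, so it is not counted as support for a change over the genes. Of all 34097 probes, 2.77% were called lower and 2.87% higher. Silica and saline rats of day 14 did not overlap for the Ciart probe alone, with silica lower, as they did for 18.7% of all probes. The median difference was 0.02 over the 5 probes without Ciart and -0.01 over all probes. At day 28, where the rule chose the probes, every one of the 6 had all silica rats below all saline rats, Ciart again with unmeasured silica signals, a pattern that 23.4% of all probes showed, and 5.0% of all probes were called lower. The Nr1d1 difference ranked 11 from the lowest of all probes at day 28. Silica differences of day 28 and day 14 stood at -2.94 and -0.82 for Nr1d1, at -1.41 and -0.29 for Nr1d2, at -1.11 and 0.13 for Dbp, and at -1.02 and 0.04 and at -1.89 and 0.02 for the Per3 probes. The difference between the days was not tested, because it holds the contrast that chose the probes.

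**Figure D2:**
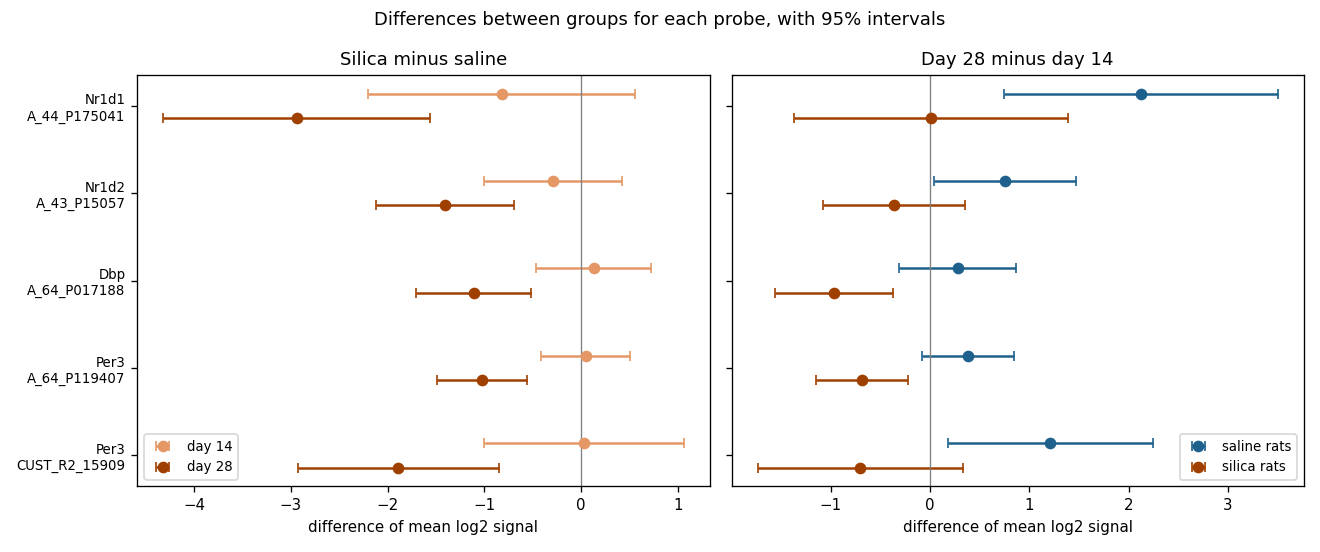
Differences of mean log2 signal (x axis) for the 5 probes of Nr1d1, Nr1d2, Dbp and Per3 (y axis) with 95% intervals from limma, silica minus saline on day 14 and day 28 at left, and day 28 minus day 14 in saline and silica rats at right. The day 14 intervals of Nr1d1, Nr1d2, Dbp and both Per3 probes span 0, and the day 28 points chose the probes and are shown as a description.

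The saline rats, which received no silica, also differed between the days for part of these genes. Nr1d1 was 2.12 higher on the log2 scale (4.35-fold) in the saline rats of day 28 than in those of day 14, which ranked 13 from the highest of all 34097 probes. With CUST_R2_15909 Per3 was 1.21 higher (2.31-fold), against 0.38 with A_64_P119407. Nr1d2 was 0.75 higher, or 0.31 higher with normexp. For Dbp the difference was 0.28 and for Ciart 0.18, and the saline groups overlapped for both. The saline days did not overlap for 4 of the 6 probes (Nr1d1, Nr1d2 and both Per3 probes), all higher on day 28, compared with 10.9% of all probes. The median was 0.57 over the 6 probes and 0.00 over all. This comparison shares the saline rats of day 28 with the contrast that chose the probes, so it carries no test. For Nr1d1 the difference of the silica responses between the days was -2.12. By arithmetic it is the silica difference between the days minus the saline difference (2.12), so these are not separate results. The silica mean of Nr1d1 was 7.93 on both days. That silica difference of 0.00 went to -0.61 without silica rat 2 of day 14 and to 0.60 without silica rat 1 of day 28.

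Among silica rats, Dbp was 0.97 lower on the log2 scale on day 28 than on day 14, and Per3 0.69 lower with A_64_P119407. These 2 of the 6 probes had every silica rat of day 28 below every silica rat of day 14, a pattern that 15.1% of all probes showed. The other differences were 0.00 for Nr1d1, -0.36 for Nr1d2 and -0.70 for Per3 with CUST_R2_15909, with overlapping groups. Ciart has no difference here, since no silica array of either day measured it above background.

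The 12 arrays lay on 2 slides. Slide 1 held the 3 silica rats and saline rat 1 of day 28, and slide 2 held the other 8. Within slide 1, the silica mean minus the signal of the saline rat was -3.21 for Nr1d1, -1.79 for Nr1d2, -1.45 for Dbp, and -1.13 and -2.33 for the Per3 probes, on the log2 scale. Each of these 5 differences was larger than over all rats of day 28. This follows from the saline rat of slide 1, which lay above its group mean on each of these probes. The comparison within slide 1 rests on that rat alone. With slide as a term in the fit, the saline difference between the days was 1.98 for Nr1d1, 0.56 for Nr1d2, 0.11 for Dbp, 0.33 and 0.99 for the Per3 probes and 0.08 for Ciart, and the silica differences were -0.41 for Nr1d1, -0.94 for Nr1d2, -1.47 for Dbp, and -0.84 and -1.36 for the Per3 probes. Only the saline rats of day 28 lay on both slides, so the slide term rests on rat 1 against rats 2 and 3. The SE of these silica differences was 1.17 for Nr1d1, 0.57 for Nr1d2, 0.47 for Dbp, and 0.39 and 0.85 for the Per3 probes. The share of probes well above background was 60.5% to 61.1% on the silica arrays of slide 1 and 63.3% on its saline array. It was 64.6% to 69.5% on slide 2, so every array of slide 1 lay below every array of slide 2.

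Rats of 1 group differed from each other in these genes more than in most. The SD pooled over the 4 groups was 0.89 for Nr1d1, larger than for 98.8% of all kept probes, whose median was 0.23. It was 0.66 for Per3 with CUST_R2_15909, 0.47 for Ciart, 0.45 for Nr1d2, 0.36 for Dbp and 0.27 for Per3 with A_64_P119407. The scanner software put the error of the bright spots at about 10.0% of their intensity, and that of the Ciart spots between 16.8% and 101%. In 3 of the 4 groups 1 rat was lowest on most probes. Rat 3 had the lowest signal of the saline rats of day 28 on all 6 probes, and rat 1 the highest on 5 of them. Rat 2 was the lowest of the silica rats of day 14 on 5 of 6 probes, all but Ciart, on which it was the highest. Rat 1 was the lowest of the silica rats of day 28 on 4 of 6 probes and the highest on Ciart. In the saline rats of day 14 no such rat stood out, with rat 2 lowest on 3 probes and highest on the other 3.

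The genes were then compared within groups, by the deviation of each of the 12 rats from its group mean. This takes out the group differences that chose the probes, but the points still share arrays, slides and groups. Nr1d2 followed Nr1d1 with r = 0.68 (rho = 0.55), Per3 with r = 0.68 (rho = 0.70) for CUST_R2_15909 and r = 0.59 (rho = 0.53) for A_64_P119407, and Dbp with r = 0.50 (rho = 0.25). Over all kept probes, r to Nr1d1 ran from -0.55 at the 5th percentile to 0.48 at the 95th. The share of the other 34096 probes with an r to Nr1d1 at least as high was 0.818% for Nr1d2, 0.789% and 2.07% for the Per3 probes and 4.34% for Dbp. Without silica rat 1 of day 28 and silica rat 2 of day 14, which lay farthest out on Nr1d1, r was 0.47 for Nr1d2, 0.22 for Dbp, and 0.46 for A_64_P119407 and 0.40 for CUST_R2_15909 of Per3. The relations to Nr1d1 thus rest partly on these rats.

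**Figure D3:**
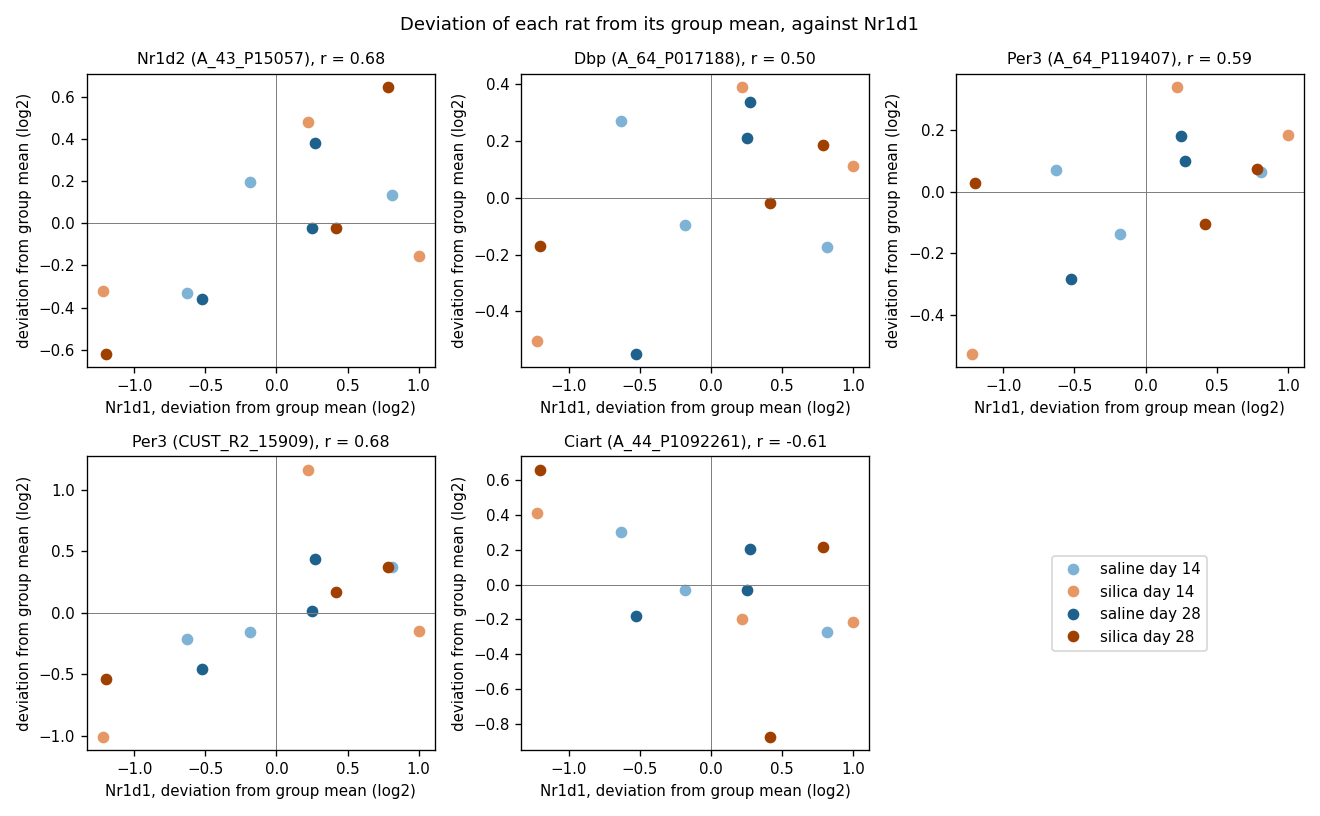
Deviation of each of the 12 rats from its group mean for Nr1d1 (x axis, log2) against the same deviation for the other 5 probes (y axis, log2), coloured by group. Nr1d2, Dbp and both Per3 probes lean upward with r from 0.50 to 0.68, and Ciart, dim in all silica rats, leans downward with r = -0.61.

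Some of the other pairs had a higher r than those with Nr1d1. Dbp and Per3 went together with r = 0.86 (rho = 0.83) for A_64_P119407 and r = 0.73 (rho = 0.64) for CUST_R2_15909, and r for the first pair was 0.83 without the same 2 rats. Nr1d2 and Per3 went together with r = 0.81 (rho = 0.83) for CUST_R2_15909 and r = 0.44 (rho = 0.48) for the other probe, and Nr1d2 and Dbp with r = 0.58 (rho = 0.55). The Per3 probes had r = 0.77 (rho = 0.67) with each other. Ciart went against Nr1d1, with r = -0.61 (rho = -0.69), and 97.0% of the other probes had a higher r. In the day 14 rats alone that r was -0.94, and in the day 28 rats -0.45. As the Ciart probe was not well above background in any silica rat, its deviations there are those of a signal near background. The 10 pairs without Ciart, the pair of Per3 probes included, all had an r above 0. In each pair 7 to 11 of the 12 rats deviated the same way in both probes. Some of these r were common among all probes. For A_64_P119407 to Nr1d2, 9.12% of the other probes had an r at least as high, and for Nr1d1 to Dbp 10.5%. For A_64_P119407 to Dbp it was 0.182%. In the saline rats 2 and 3 of day 14, Dbp deviated opposite to Nr1d1. The daily phase of these genes could not be read from samples without an hour.

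Of 831 other named genes measured well above background on all arrays, Fam46b was the most like Nr1d1 in these deviations (r = 0.95, rho = 0.92). Fam46b belongs to a family of nucleotidyltransferases. Its group means were 6.73 in saline and 5.83 in silica on day 14, and 7.64 and 6.15 on day 28, so that it too was highest in the saline rats of day 28. Its day 14 difference of -0.90 had an adjusted p of 0.037 in limma, under the 2-fold limit. The next were Gcnt1, a glycosyltransferase of O-glycan branches (r = 0.67), Spred3, an inhibitor of the Ras pathway (0.67), Lepr, the leptin receptor (0.65), and Klf9, a zinc finger factor responsive to glucocorticoids and known as a clock output (0.65). The most opposite were Mzb1, a plasma cell protein of the endoplasmic reticulum (r = -0.72), LOC102547056 (-0.71) and Kif2c, a mitotic kinesin (-0.69). Ddhd1, a phospholipase (-0.64), and Galnt7, an enzyme of O-glycan synthesis (-0.61), came next. The genes most like Nr1d1 between rats did not share 1 group pattern. At day 28, Gcnt1 and Spred3 were higher in silica, with log2 differences of 1.03 and 1.02. Lepr and Klf9 were lower, as Fam46b was, with -1.02 for each. All of these genes come from the table of probes chosen on day 28.

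Of a list of 36 other clock genes and genes responsive to glucocorticoids, 6 had a named probe (7 probes), all from that same table. Bmal1, Clock, Cry1, Cry2, Per1 and Per2 were not analysed here. At day 14, Bhlhe40 and Bhlhe41, repressors that bind E-boxes, were called higher in silica, and Zbtb16, a zinc finger repressor that glucocorticoids induce, was called lower. The log2 differences were 1.30 (limma adjusted p = 0.0059) for Bhlhe40, 3.12 (adjusted p = 0.00048) for Bhlhe41 and -2.67 (adjusted p = 0.0012) for Zbtb16. Klf9 differed by -0.71 (limma adjusted p = 0.017), short of the 2-fold limit. Sgk1, a kinase induced by glucocorticoids, differed by 0.56 and 0.51 on its 2 probes (limma adjusted p = 0.13 and 0.14) and Nfil3 by -0.03 (adjusted p = 0.97), and neither was called.

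Nfil3 is the repressor that competes with Dbp for D-boxes. Its signal was 6.43, 5.86 and 6.40 in saline and 5.84, 6.75 and 6.01 in silica on day 14, and 4.93, 5.92 and 5.93 in saline and 6.97, 6.53 and 6.41 in silica on day 28. Like Nr1d1 it overlapped between silica and saline on day 14 and not on day 28, but with silica higher, and its saline rats were 0.63 lower on day 28 than on day 14. Between rats of a group its r to Nr1d1 was -0.47 (rho = -0.44). Of the other list genes, Zbtb16 was 1.53 higher in the saline rats of day 28 than in those of day 14, Bhlhe41 0.59, Klf9 0.58 and Bhlhe40 0.22 higher, while the Sgk1 differences were -0.49 and -0.36. Between rats of a group Zbtb16 followed Nr1d1 with an r of only 0.16 (rho = 0.14), Klf9 with 0.65 (rho = 0.69).

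**Figure D4:**
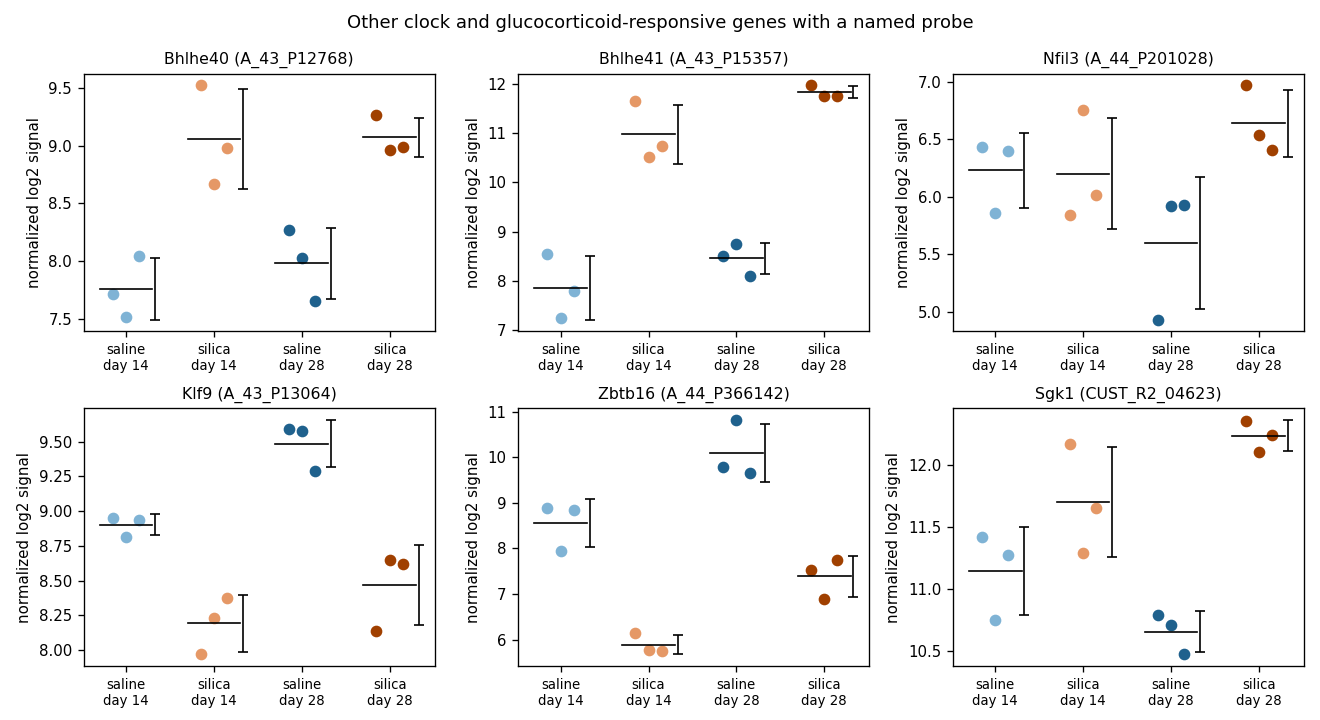
Normalized log2 signal (y axis, own scale per panel) of the 6 other clock or glucocorticoid-responsive genes that had a named probe, in the 4 groups of 3 rats (x axis), with means and bars of 1 SD. Nfil3 and Sgk1 overlap between silica and saline on day 14 and not on day 28, and Bhlhe40, Bhlhe41, Klf9 and Zbtb16 are separated on both days. The choice on day 28 favours separation on that day. The share of all probes with every silica rat higher is not given here.

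Markers of other cell types moved between the same groups, and their part in these results was not tested. The summed signal of 6 of 7 macrophage markers that had a name, on the linear scale, was 2145 to 3636 in saline and 19104 to 28875 in silica on day 14, and 2660 to 3074 and 29805 to 37786 on day 28. That of 5 of 6 endothelial markers was 25998 to 32280 and 8245 to 16329 on day 14, and 35681 to 43087 and 9614 to 19090 on day 28. The macrophage and endothelial sums did not overlap between silica and saline rats on either day. All named markers come from the table of probes chosen on day 28, so their separation on that day is a description. Markers that did not change on day 28 could not enter the sums. Of all single probes, 18.7% had every silica rat lower on day 14 and 23.4% on day 28. The shares with every silica rat higher, the direction of the macrophage sum, are not given here. The summed signal of 2 of 5 erythroid markers was 18009 to 36664 in saline and 5755 to 11825 in silica on day 14. On day 28 it was 29186 to 70310 and 2249 to 14400. Between rats of a group, r to Nr1d1 was 0.60 for Hbb-b1, a globin, and 0.56 for Hbe2, the other erythroid marker. It was 0.12 to 0.37 for the endothelial probes and -0.50 to 0.16 for the macrophage probes. All of these markers were well above background on all 12 arrays, as was Aqp5, a water channel of alveolar type 1 cells. The defining genes of alveolar type 2 and club cells had no named probe here.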

How the data were processed

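Whole-lung RNA of 12 rats, labelled with Cy3, was read on 1 Agilent array per rat. Feature Extraction 10.7.1.1, with which the authors read the arrays, subtracts background and corrects gradients. The authors deposited spot intensities that were not normalized between arrays. They also deposited a log2 table, quantile normalized in GeneSpring per their methods, which differed by at most 0.0014 from the values computed here for the 6 probes; each of its columns had a median of 5.43.

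From the intensities, 1439 control spots of 62972 per array and 363 to 443 outlier spots per array were left out, and spots of a probe were averaged (1 spot for each of the 6 probes). No probe was saturated. The log2 intensities were quantile normalized over 12 arrays, and 34097 of 51255 probes were kept. limma 3.58.1 in R 4.3.3 fitted 4 group means, with Benjamini-Hochberg adjustment over all kept probes. Python 3.11.15, numpy 2.4.6, pandas 2.3.3, scipy 1.17.1 and matplotlib 3.10.9 were used for tables and plots. Tested on simulated data for day 14 over 34097 probes, the fit recovered 91% of log2 changes of 2 and 96% of those of 3. The changes were put into probes drawn from all kept probes, whose median SD was 0.23. The probes of the 5 genes varied more, and smaller changes were not simulated, so these shares do not hold for them. The number of arrays limits the precision, and the p-values measure the spread between these rats.

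Probes were named from the first 1279 of 2275 rows of the study's table. The members and gene lists were chosen with earlier results of these data known. The text names every probe of the 5 genes, every gene of the clock list with a name, and the 5 named genes with the highest and the 5 with the lowest r to Nr1d1. Sums of markers used the brightest probe of a gene; of the other lists, Mzb1 alone named the lymphocyte list and Col1a1 the fibroblast list, and the neutrophil and smooth muscle lists had no named probe. Alternatives were normexp (offset 50), scaling to the 75th percentile, no filter on dim probes, the deposited table, slide or replicate number as a block, each rat left out, each day alone, the methods' t-test and, chosen after seeing the data, signals raised to the detection floor. Same-numbered silica and saline rats did not deviate together (r from -0.17 to 0.07), so the numbers were not taken as pairs.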

Additional observations from a re-analysis of the deposited data

How the results depend on the processing

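Of the 6 probes, 1 met the limits of a call at day 14, that of Ciart. Its silica signals were below the background flag in all rats, so that the settings that use them as read do not bear on its size. Under those settings it met the limits with each of the 12 rats left out (log2 difference -2.28 to -1.92), with scaling to the 75th percentile, without the filter, with the deposited table and with slide as a block. It also met them with the replicate number as a block (-2.09, adjusted p = 0.0030), which changed no other call of the 6 probes. The number of called probes was 0 with normexp, 0 with signals raised to the detection floor, 0 with the arrays of day 14 alone, where Ciart was not tested, and 0 with the methods' t-test after adjustment. At the methods' own limits, with no adjustment, that test called 1898 of all probes, Ciart among them, and 1 after adjustment. Over the limma alternatives the adjusted p of Ciart ran from 0.0009 to 0.45. Ciart at day 28 turned to 0.27 at the detection floor. With each rat left out, the uncalled day 14 differences ran from -0.066 to 0.38 for Dbp, from -0.13 to 0.31 for A_64_P119407 and from -0.56 to 0.53 for CUST_R2_15909 of Per3, and from -1.32 to -0.21 for Nr1d1. The median day 28 difference over the 6 probes, Ciart as read, went from -1.48 to -0.98 with normexp. The median r was taken over pairs of genes, Ciart included and Per3 by A_64_P119407. It went from 0.47 to 0.38 in the rats of day 14 alone and to 0.37 with rank correlation. With each rat left out it ran from 0.29 to 0.58. Without the Ciart pairs the median was 0.58 over all rats.

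Calls over all probes, higher and lower in silica, went from 978 and 946 to 449 and 285 with normexp at day 14, and from 1617 and 1705 to 793 and 521 at day 28. With slide as a block they were 1687 and 919 at day 28. The lower calls of day 14 were 576 without saline rat 1, 472 without saline rat 3, 320 without silica rat 1 and 1549 without silica rat 2. Those of day 28 were 1101 without silica rat 1. The causes were not tested.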
